A study of Mus musculus with 26 samples.

Results

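The Tex10 conditional knockout (cKO) testis experiment holds 4 of the 26 RNA-seq libraries of a mouse study of Tex10 in germ cells: 2 libraries from the testis of wildtype mice and 2 from the testis of Tex10 cKO mice. The members are all genes whose mean over these 4 libraries was at least 1, which left 20658 of the 21275 genes in the table. All 4 samples were labelled as cells from the testis of untreated C57BL/6N mice, and differed in the labels only by genotype and sample number. Age, the Cre line and the cells it acts in, and whether each library is 1 animal or a pool are not given in the sources used here, so p-values measure only the spread between these samples, which may be technical. The other 22 libraries come from cell cultures and were not used.

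Tex10 is a nuclear protein that works in a complex with Pelp1, Wdr18, Senp3, Las1l, Nol9 and Mdn1, which matures the large ribosomal subunit, and it has also been studied as a cofactor at enhancers of pluripotency genes. In the testis, spermatogonia divide by mitosis and enter a long meiotic prophase as spermatocytes, and the haploid cells that follow mature from round to elongating spermatids, which build the acrosome, pack the DNA with protamines and assemble the tail. Sertoli cells nurse the germ cells inside the tubules. Leydig cells make testosterone in the tissue between the tubules, where fibroblasts, vessels and macrophages also lie.

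Libraries held between 6058987 and 7272313 reads in the table, and a single read equalled 0.127 to 0.171 on the scale used throughout, called TMM-scaled CPM: read counts divided by a library size that was adjusted by the trimmed mean of M values (TMM). A floor of 3 reads was then 0.381 to 0.514, and it covers counting error only. Replicates differed by more than counting error, with a chi-square per gene of 7.31 between the wildtype libraries and 4.86 between the cKO libraries. Across genes, which are not independent replicates, log2 values correlated at 0.980 and 0.982 within the groups and at 0.939 to 0.956 between them. An abundant transcript with ribosomal RNA-like sequence, Gm42418, stood apart in wildtype 2, at 8387 and 1524 in wildtype and 7826 and 4992 in cKO, and its groups overlapped. Other RNAs, named after their values were seen, were also lowest in wildtype 2. Gm23935 was at 3557 and 869 in wildtype and 2558 and 2243 in cKO. Rn7sk was at 41.9 and 4.08 in wildtype and 25.8 and 20.3 in cKO. Markers of every stage of germ cell and of Sertoli and Leydig cells were detected, while 2 of 11 genes of an epididymis list and 4 of 10 of a lymphocyte list reached the minimum mean.

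Tex10 itself was lower in the cKO testis but was still detected. It lies on the minus strand of chr4:48430858-48473459 (mm10, GENCODE M21), where its gene body overlaps Invs on the opposite strand. Tex10 stood at 79.1 and 44.1 in wildtype and 29.8 and 27.3 in cKO, so both cKO libraries were below both wildtype libraries, and the wildtype libraries differed from each other by more than the cKO libraries did. The fold change was -1.02 on the log2(value + 1) scale (SE 0.214, adjusted p = 0.00318 by limma, Benjamini-Hochberg adjusted over all 20658 genes, as for every adjusted p of a gene in the text). Without wildtype 1 the difference was -0.61 and without wildtype 2 it was -1.44. Without the variance trend in limma the adjusted p was 0.0782. The overlapping gene Invs stood at 14.7 and 9.57 in wildtype and 12.7 and 12.5 in cKO (log2 fold change 0.07, adjusted p = 0.855), and the sources used here do not say whether reads were counted by strand.

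Across the transcriptome, 6016 genes (29.1% of those tested) were called at an adjusted p under 0.05. Of these, 3316 were higher in cKO (16.1%) and 2700 were lower (13.1%). In 6013 of the 6016 calls the groups did not overlap, against a background of 34.8% of all genes with both cKO libraries above both wildtype libraries and 31.5% with both below. Among called genes the increases were larger than the decreases: the median log2 fold change was 1.01 for genes called higher and -0.63 for genes called lower. With an added minimum of 1 on the absolute log2 fold change 1706 higher and 272 lower genes were left. Genes called higher and lower differ in abundance, as given below, so these medians do not compare like genes. The median over all genes tested was 0.01. The count rested in part on 1 library and on the variance model: without cKO 1 it was 3199 (8.1% higher and 7.5% lower), and without the variance trend it was 2135 (8.04% higher and 2.3% lower). Genes described as called in the text that lost their call without the variance trend include Tex10, Cd36, Cstdc2, Etv5, Ccnd2, Tdrd6, Ccna1, Tssk2, Acrv1, Acr, Fscn3, Prm1, Dnah1, Rfx2, Cfap44, Insl3, Star, Cyp11a1, Sult1e1, Myl9, Myh11, Actg2, Vwf, Tek, Csf1r, Cd74, Rnase10, Ncl, Nop14, Rpl22, Psat1, Atf4, Asns, Msmo1, Sqle, Tdrd7, Rnf17, Klf4, Cox8a, mt-Rnr2 and Cylc1.

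Direction went with abundance. When the tested genes were split into 5 groups of about equal size by their mean over the 4 libraries, 10.8% of the most abundant group were called higher and 38.7% lower, with a median log2 fold change of -0.25. In the middle group, with means from 8.03 to 20.3, 24.8% were called higher and 7.09% lower, and the median was 0.17. The least abundant group had 5.88% higher and 1.57% lower. At low values few reads stand behind each gene and the scale of log2(value + 1) shrinks fold changes, so these shares cannot be compared as effect sizes.

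**Figure D1:**
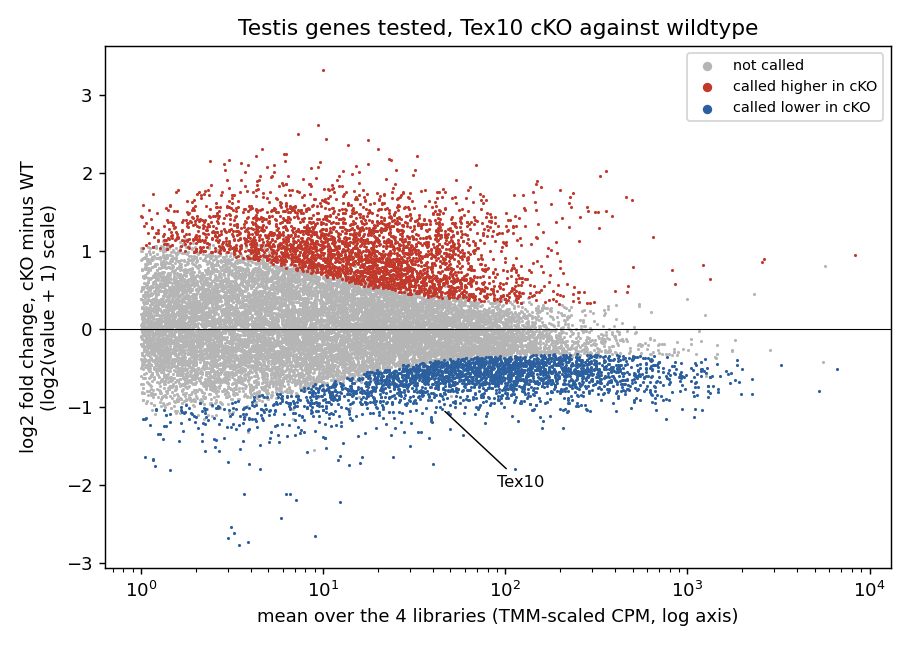
Each point is a gene tested in testis, with its mean over the 4 libraries in TMM-scaled CPM on a log axis and its log2 fold change in cKO against wildtype on the log2(value + 1) scale. Genes called higher (3316) lie mostly at middle means and genes called lower (2700) mostly at high means, with Tex10 among the genes called lower.

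The largest increases were also in genes of varied function, Igfbp3 and Pdgfra among them. Igfbp3, a binding protein for insulin-like growth factors on chr11:7206086-7213923, had the largest increase under the naming rule, at 0.685 and 0.942 in wildtype and 28 and 10.4 in cKO (log2 fold change 3.33, SE 0.393, adjusted p = 0.000101). Both cKO libraries were far above both wildtype libraries, and cKO 1 was well above cKO 2. Pdgfra, the receptor for platelet-derived growth factor that marks mesenchymal cells, stood at 6.16 and 5.81 in wildtype and 39.3 and 28.8 in cKO (log2 fold change 2.31, SE 0.223, adjusted p = 3.55e-05).

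The other members of the 12 largest increases were Cstdc2, C1qtnf6, Aqp2, Cd36, Serpina3n, Shbg, Wfdc10, Drd4, Cst12 and Nrep, with log2 fold changes between 2.15 and 2.63. Cd36, a fatty acid transporter, was at 6.68 and 2.51 in wildtype and 45.1 and 15.9 in cKO, and Aqp2, a water channel, was at 2.91 and 1.73 in wildtype and 26.5 and 10.4 in cKO. In both genes cKO 1 was the highest library, as it was for Cstdc2, at 1.37 and 1.41 in wildtype and 28.1 and 6.48 in cKO. Shbg, which codes for the carrier of sex steroids that Sertoli cells secrete as androgen-binding protein, was at 0.685 and 2.67 in wildtype and 12 and 9.66 in cKO, with cKO libraries close to each other. The calls of Cstdc2 and Cd36 were lost without the variance trend.

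The largest decreases were in genes of varied function. Ccl28, a chemokine, had the largest decrease under the naming rule, at 7.02 and 14.4 in wildtype and 1.25 and 0.889 in cKO (log2 fold change -2.43, SE 0.362, adjusted p = 0.000401). Scn10a, a voltage-gated sodium channel, was at 11.8 and 10.8 in wildtype and 1.25 and 2.54 in cKO (log2 fold change -2.12, SE 0.32, adjusted p = 0.000433), and Vnn1, a pantetheinase, was at 10.1 and 11.3 in wildtype and 1.11 and 2.41 in cKO (log2 fold change -2.12, SE 0.328, adjusted p = 0.000494). In each of these 3 genes both cKO libraries were at 2.54 or lower.

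Among the more abundant of them, Shroom3, an actin-binding protein of apical cell shape on chr5:92683435-92965318, was at 152 and 199 in wildtype and 45.3 and 53.6 in cKO (log2 fold change -1.80, SE 0.149, adjusted p = 1.6e-05), and Ncs1, a neuronal calcium sensor, was at 51.9 and 59 in wildtype and 18.1 and 22.7 in cKO (log2 fold change -1.40, SE 0.167, adjusted p = 0.000108). The groups were far apart in both. The remaining members, St6galnac3, Mpped1, Arfgef3, Ccdc7a, Zfp981, Mgat3 and Vmn1r43, had log2 fold changes from -1.74 to -1.40. Mgat3 lost its call without cKO 2, under DESeq2 and without the variance trend, and its cKO libraries differed widely, at 8.92 and 2.16.

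Read along the order of germ cell development, list medians were above 0 up to meiotic prophase and below 0 from pachytene spermatocytes on. The median log2 fold change was 0.32 for undifferentiated spermatogonia, 0.69 for differentiating spermatogonia, 0.13 for meiotic prophase, -0.38 for pachytene and diplotene spermatocytes, -0.59 for round spermatids and -0.61 for elongating spermatids, against 0.01 over all genes. Under quantile normalization the signs were kept, but the undifferentiated, round and elongating medians were 0.19, -0.38 and -0.28. With a pseudocount of 5 the undifferentiated median was 0.14, and without cKO 2 the meiotic prophase median was -0.04. The count of called members in each list stands against 16.1% higher and 13.1% lower over all genes. In the most abundant of the 5 groups of genes above, these shares were 10.8% higher and 38.7% lower. In a tissue sample, fewer cells of a type and less RNA per cell cannot be told apart, and since values are relative to a scaled library size, they give no amount of RNA per cell or per testis. In the same libraries the markers of Sertoli cells, Leydig cells and interstitial fibroblasts were higher, with values given with those lists. Their part in the germ cell values was not tested.

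**Figure D2:**
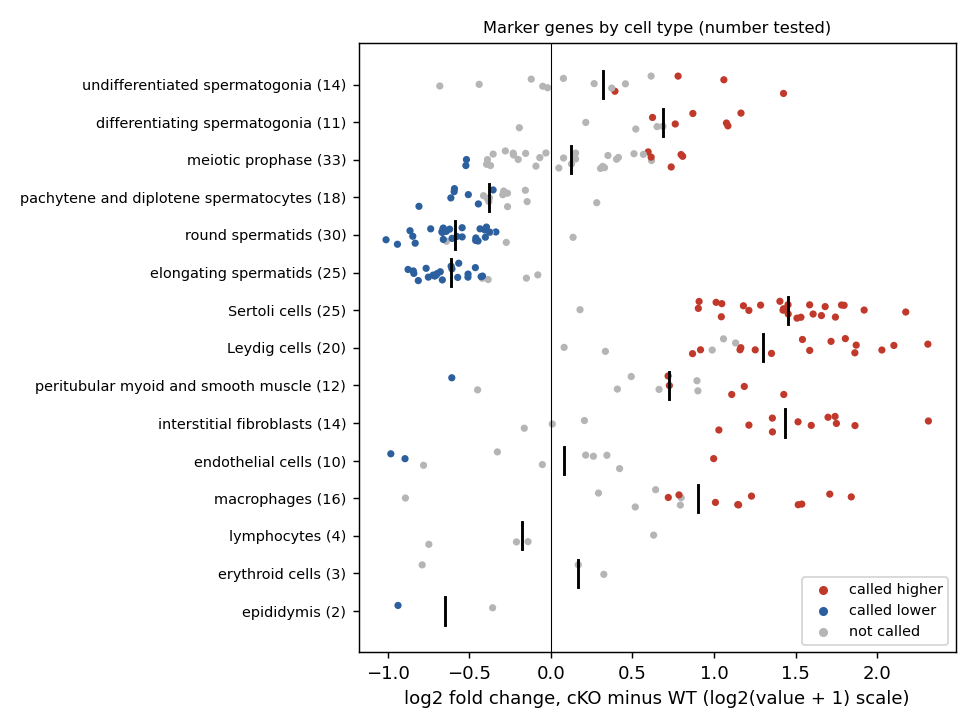
Each point is a tested marker gene, placed by its log2 fold change in cKO against wildtype on the log2(value + 1) scale, and the black bar is the list's median. Lists run from germ cell stages to somatic cells; spermatid medians are -0.59 and -0.61 while those of Sertoli cells, Leydig cells and fibroblasts are 1.45, 1.30 and 1.44.

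Of 14 tested genes of undifferentiated spermatogonia, the pool that holds the stem cells, 4 were called higher (28.6%, against 16.1% of all genes) and none lower. These were Sox3, Lin28a, Etv5 and Id4, the last named after its values were seen. Sox3, a transcription factor of progenitors, was at 3.94 and 4.08 in wildtype and 10.3 and 15 in cKO (log2 fold change 1.42, SE 0.282, adjusted p = 0.00233), and Etv5, a factor needed for self-renewal, was at 23.1 and 19.1 in wildtype and 43.2 and 31.4 in cKO (log2 fold change 0.78, SE 0.189, adjusted p = 0.00771). Gfra1, the receptor for the stem cell niche factor Gdnf, was at 16.1 and 13.8 in wildtype and 9.05 and 12.7 in cKO (adjusted p = 0.182), and Zbtb16 was at 5.31 and 6.59 in wildtype and 11.3 and 8.13 in cKO (adjusted p = 0.114). Neither passed the test. Summed over the list, the level was 192 and 205 in wildtype and 250.3 and 249 in cKO, and 1 gene was called higher without cKO 1 or without the variance trend, and 2 without cKO 2 or under DESeq2. Under quantile normalization 3 were higher and 1 was lower. The call of Etv5 was among those lost without cKO 1.

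Differentiating spermatogonia showed 6 of 11 genes higher and none lower. Kit, the receptor that marks entry into differentiation, was at 14.4 and 14.6 in wildtype and 30.9 and 32.8 in cKO (log2 fold change 1.08, SE 0.178, adjusted p = 0.000736), with the libraries of each group close together. Dazl, an RNA-binding protein of germ cells, was at 109 and 101 in wildtype and 195 and 189 in cKO (log2 fold change 0.87, SE 0.117, adjusted p = 0.000222). Stra8, which is induced by retinoic acid at the start of meiosis, was at 1.54 and 2.04 in wildtype and 5.15 and 4.57 in cKO (log2 fold change 1.08, adjusted p = 0.0243), and Ccnd2, a cyclin, at 3.94 and 5.34 in wildtype and 14.5 and 9.15 in cKO (adjusted p = 0.00971). Stra8 was not called without wildtype 1, without cKO 2, under DESeq2 or under quantile normalization, and neither it nor Ccnd2 without cKO 1. The count fell to 2 without cKO 1 and to 3 under DESeq2, under quantile normalization and without the variance trend. The summed level was 946 and 991 in wildtype and 979 and 1054 in cKO, which overlapped between groups because Dmrtb1, at 746 and 806 in wildtype and 639 and 719.8 in cKO, made up most of it.

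In meiotic prophase, 5 of 33 genes were higher (15.2%, against 16.1% of all genes), 2 were lower (6.06% against 13.1%) and 26 did not pass the test. The genes called higher were Dmc1 and Msh5 of recombination, Hormad1 of the chromosome axis, Gm4969 (Meiosin), a partner of Stra8, and 4930447C04Rik (Six6os1), a part of the synaptonemal complex. Dmc1, the meiotic strand-exchange recombinase, was at 6.68 and 7.06 in wildtype and 11.7 and 13.7 in cKO (log2 fold change 0.80, SE 0.247, adjusted p = 0.0263). Gm4969 was at 7.02 and 6.91 in wildtype and 12.5 and 13.3 in cKO (log2 fold change 0.81, SE 0.242, adjusted p = 0.0228), and in both genes the groups were apart by more than their spread.

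The 2 lower genes were the meiotic cohesin Smc1b, at 81.5 and 107 in wildtype and 64.6 and 65.1 in cKO (log2 fold change -0.52, SE 0.144, adjusted p = 0.0159), and Tex15, at 162 and 205 in wildtype and 128 and 126 in cKO (log2 fold change -0.52, SE 0.132, adjusted p = 0.00957), named after their values were seen, as were Msh5 and Hormad1. Sycp3 and Sycp1, structural proteins of the synaptonemal complex, had log2 fold changes of 0.35 and 0.15 and adjusted p-values of 0.116 and 0.546. No gene of the list was called higher without cKO 1, under DESeq2 or under quantile normalization, and 1 was without cKO 2 and 2 without the variance trend. No gene was called lower without wildtype 2 or without the variance trend, and 1 was under quantile normalization and without cKO 1, so the calls of this list in both directions depend on the fit. Dmc1 was also not called without wildtype 1, and neither it nor Gm4969 without cKO 2. The median ranged from -0.04 to 0.26 when single libraries were left out.

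Some of the later spermatocyte markers were called lower. Of 18 genes of pachytene and diplotene cells, 7 were called lower (38.9%, against 13.1% of all genes) and none higher. Of the most abundant of the 5 groups of genes 38.7% were called lower, so 38.9% is not read as an excess. In 17 of the 18 both cKO libraries were below both wildtype libraries, as in 31.5% of all genes. Tdrd6, a tudor protein of the chromatoid body, was at 1556 and 2180 in wildtype and 1127 and 983 in cKO (log2 fold change -0.81, SE 0.158, adjusted p = 0.00217), and Ccna1, the cyclin of the first meiotic division, was at 101 and 114 in wildtype and 78.1 and 62.1 in cKO (log2 fold change -0.61, SE 0.141, adjusted p = 0.00566). Mybl1, a transcription factor of pachytene cells, was at 104 and 98.9 in wildtype and 88.2 and 93.5 in cKO and did not pass the test (adjusted p = 0.364). The call of Ccna1 was lost without cKO 2 and that of Tdrd6 under quantile normalization. The summed level was 8796 and 10297 in wildtype and 6850 and 7350 in cKO, and the count of lower genes was 12 without wildtype 1, 14 with a replicate block (sample number as a term), 4 without cKO 2, 2 under quantile normalization and 0 without the variance trend.

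Round spermatid genes fell almost throughout, with 26 of 30 called lower and none higher. Catsper1, a subunit of the sperm calcium channel, was at 119.7 and 116 in wildtype and 62.3 and 66.7 in cKO (log2 fold change -0.86, SE 0.124, adjusted p = 0.000324). Tssk2, a kinase of spermatids, was at 679.7 and 1008 in wildtype and 468 and 397 in cKO (log2 fold change -0.94, SE 0.162, adjusted p = 0.000996), and Acrv1, a protein of the acrosome, was at 161 and 151 in wildtype and 91.5 and 104 in cKO (log2 fold change -0.67, SE 0.123, adjusted p = 0.00151). In all 3 genes the groups were clearly separate.

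Acr, the acrosomal protease, changed less, at 230.4 and 242 in wildtype and 170.1 and 189 in cKO (log2 fold change -0.39, SE 0.117, adjusted p = 0.0212), and Spaca7 was at 8.56 and 9.73 in wildtype and 3.76 and 4.32 in cKO (log2 fold change -1.01, SE 0.282, adjusted p = 0.0159). The 4 members that did not pass were Tmem95, Spaca6, Crem and Sun5, with Spaca6, which is needed for sperm and egg fusion, at 43 and 32.5 in wildtype and 42.6 and 39.8 in cKO (adjusted p = 0.571). Summed over the list the level was 5844 and 6367 in wildtype and 3945 and 4165 in cKO. Without cKO 1, 11 genes were called lower, and Acr and Spaca7 were not (Spaca7 also not without wildtype 2, and Acr not under quantile normalization); with quantile normalization 13 and without the variance trend 3.

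Elongating spermatid genes made up the largest summed level of any germ cell list, 36054 and 39030 in wildtype and 24837 and 25672 in cKO. Of 25 tested genes 21 were called lower and none higher. Akap4, the main scaffold of the fibrous sheath of the tail and an X-linked gene, was at 2777 and 3039 in wildtype and 1630 and 1618 in cKO (log2 fold change -0.84, SE 0.133, adjusted p = 0.000574), and its partner Akap3 was at 1659 and 1708 in wildtype and 942 and 895 in cKO (log2 fold change -0.87, SE 0.122, adjusted p = 0.00027). Fscn3, a fascin of the spermatid head, was at 163 and 207 in wildtype and 98.6 and 105 in cKO (log2 fold change -0.84, SE 0.134, adjusted p = 0.000581).

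Of the protamines, which replace histones in the sperm nucleus, Prm1 was lower, at 1833 and 2921 in wildtype and 1347 and 1553 in cKO (log2 fold change -0.68, SE 0.184, adjusted p = 0.0138), with the wildtype libraries far apart, and Prm2 was at 6221 and 6383 in wildtype and 4697 and 4729 in cKO and did not pass the test (adjusted p = 0.051). Meig1, Odf3 and Odf4 also did not pass, with Odf4, an outer dense fibre protein, at 152 and 195 in wildtype and 148 and 179 in cKO (adjusted p = 0.711). Prm1 was not called under DESeq2 or quantile normalization. Without cKO 1, 13 genes were called lower, Prm1 not among them; with quantile normalization 9 and without the variance trend 3.

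**Figure D3:**
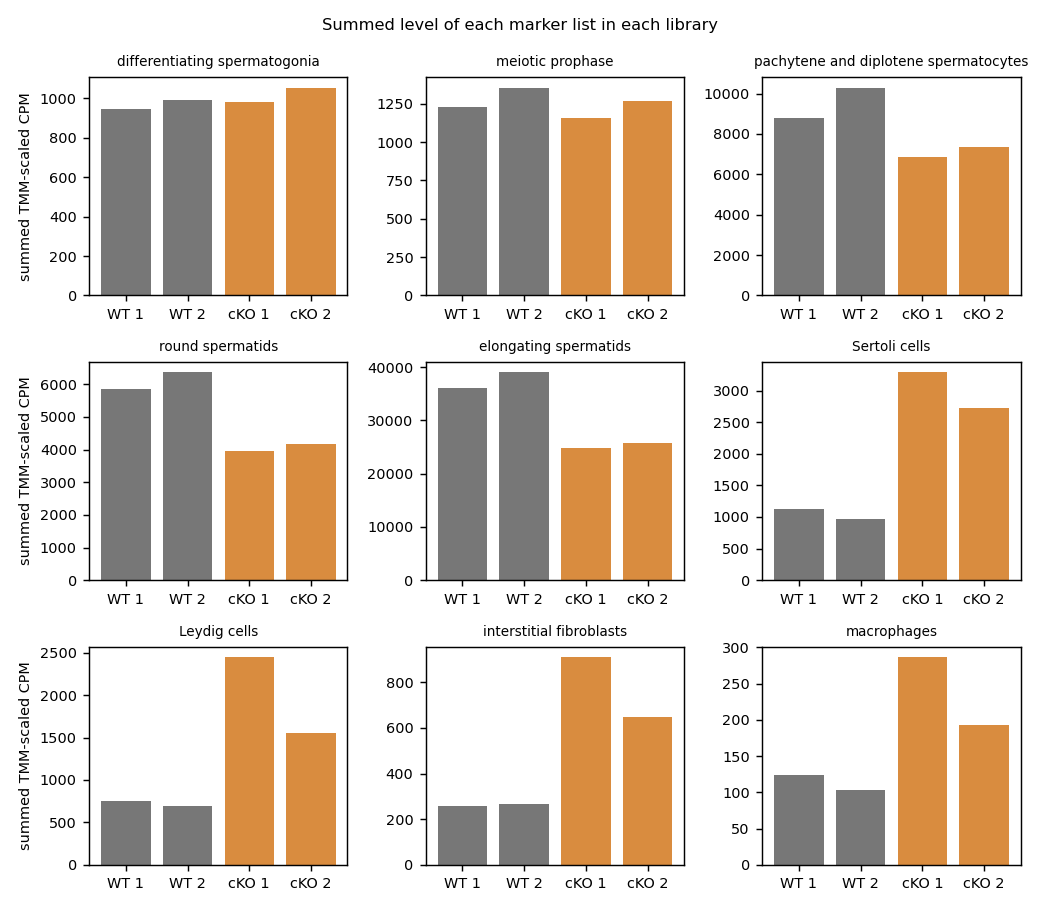
Bars give the summed TMM-scaled CPM of each marker list in each of the 4 libraries, from 0, with wildtype in grey and cKO in orange. The pachytene and spermatid lists are lower in both cKO libraries, the 4 somatic lists are higher, and cKO 1 exceeds cKO 2 most in Leydig cells (2450 against 1559).

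Genes of the sperm tail and of sperm metabolism moved with the spermatid lists. Among 34 genes of the axoneme and tail, 28 were called lower and none higher, with a median log2 fold change of -0.61. Qrich2, a protein needed for the flagellum, was at 1248 and 1727 in wildtype and 764 and 682 in cKO (log2 fold change -1.02, SE 0.151, adjusted p = 0.000376), and Cfap43, a cilium and flagellum protein, was at 275 and 378 in wildtype and 161 and 164 in cKO (log2 fold change -0.98, SE 0.141, adjusted p = 0.000324). The axonemal dynein heavy chain Dnah1 was at 119.8 and 139.7 in wildtype and 85.9 and 98.6 in cKO (log2 fold change -0.49, SE 0.131, adjusted p = 0.0131) and Dnah2 was at 115 and 125 in wildtype and 90.3 and 99.1 in cKO, which did not pass (adjusted p = 0.0536). Dnah1 was not called without wildtype 2, without cKO 1 or under quantile normalization. Without cKO 1, 17 were lower, with quantile normalization 18 and without the variance trend 3.

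Sperm glycolysis genes, many of them copies that are expressed in the germ line in place of a somatic enzyme, had 10 of 12 lower and a median of -0.59. Hk1, a hexokinase, was at 1747 and 1976 in wildtype and 1009 and 1173 in cKO (log2 fold change -0.77, SE 0.134, adjusted p = 0.00103), and Gapdhs, the glyceraldehyde-3-phosphate dehydrogenase of sperm, was at 246 and 275 in wildtype and 149 and 172 in cKO (log2 fold change -0.70, SE 0.123, adjusted p = 0.00115). Pgk2 was at 1449 and 1554 in wildtype and 1034 and 1080 in cKO (log2 fold change -0.51, SE 0.123, adjusted p = 0.00794) and Ldhc at 727 and 780.1 in wildtype and 594 and 660.2 in cKO, which did not pass (adjusted p = 0.112). Hk1 and Gapdhs overlap genes on the opposite strand. These changes depended on scaling: under quantile normalization 2 genes of the list were called and the median was -0.15, with Pgk2 at 0.04. Without cKO 1, 5 were called, Pgk2 and Hk1 not among them, without cKO 2 Pgk2 was not called, and without the variance trend none.

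The promoters of the genes called lower were read for 2 motifs in the 300 bases from 250 before to 50 after the start site, a search chosen after the values were seen. The X-box core GTTGCCAT is the letter pattern bound by RFX factors, which drive genes of cilia, and CRE (TGACGTCA) is that of the CREB and CREM family, which acts in spermatids; both strands were searched, and neither pattern contains the other. The X-box core was present in 72 of 1888 promoters of genes called lower (3.81%), in 17 of 2421 of genes called higher (0.702%) and in 1.70% of the 13323 tested genes with a promoter in the table. Among all 32817 promoters in the table the share was 1.34%. A match started within 100 bases before the start site in 48 of these 72 promoters of lower genes and in 9 of the 17 of higher genes.

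Read the other way, 31.7% of the 227 tested genes with the X-box core were called lower and 7.49% higher, with a median log2 fold change of -0.25. In the 13096 genes without it, 13.9% were lower and 18.4% higher, with a median of 0.05. CRE showed a smaller contrast, in 3.81% of promoters of genes called lower, 3.14% of those called higher and 3.24% of all tested genes with a promoter (1.79% of the whole table). A match is a description of letters, not of a bound site. Rfx2, an RFX factor of spermatids that is in the round spermatid list, was at 340.0 and 389.9 in wildtype and 249 and 282 in cKO (log2 fold change -0.46, SE 0.122, adjusted p = 0.0123), and its call was lost under quantile normalization and without cKO 1.

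Promoters of 4 genes called lower are shown to give the motif in its place: Cfap44 from the axoneme list, and Kcnj9, Apobec4 and Lrriq4, which were picked after their values were seen. They are RefSeq sequences of GRCm38.p6, 5′ to 3′ along the gene, with the X-box core in capitals, read as GTTGCCAT or, on the other strand, as ATGGCAAC. Kcnj9 lies at chr1:172329273-172329572 on the minus strand, Apobec4 at chr1:152750301-152750600 on the plus strand, Lrriq4 at chr3:30647719-30648018 on the plus strand and Cfap44 at chr16:44394549-44394848 on the plus strand.
Kcnj9: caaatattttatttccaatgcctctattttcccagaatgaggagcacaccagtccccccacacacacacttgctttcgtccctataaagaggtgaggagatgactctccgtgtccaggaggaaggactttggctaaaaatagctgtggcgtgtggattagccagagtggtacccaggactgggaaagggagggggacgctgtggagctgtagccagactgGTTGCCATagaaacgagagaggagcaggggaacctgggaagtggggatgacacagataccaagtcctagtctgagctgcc
Apobec4: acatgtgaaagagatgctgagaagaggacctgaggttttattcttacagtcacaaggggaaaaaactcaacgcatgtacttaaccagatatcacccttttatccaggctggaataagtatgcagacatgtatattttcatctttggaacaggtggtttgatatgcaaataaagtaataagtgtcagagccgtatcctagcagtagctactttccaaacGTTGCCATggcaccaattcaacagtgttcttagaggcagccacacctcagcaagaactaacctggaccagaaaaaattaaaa
Lrriq4: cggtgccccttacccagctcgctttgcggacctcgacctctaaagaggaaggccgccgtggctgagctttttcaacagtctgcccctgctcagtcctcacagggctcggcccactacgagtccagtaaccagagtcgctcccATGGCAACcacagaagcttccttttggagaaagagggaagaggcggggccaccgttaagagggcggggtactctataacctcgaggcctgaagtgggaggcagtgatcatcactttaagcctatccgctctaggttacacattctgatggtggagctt
Cfap44: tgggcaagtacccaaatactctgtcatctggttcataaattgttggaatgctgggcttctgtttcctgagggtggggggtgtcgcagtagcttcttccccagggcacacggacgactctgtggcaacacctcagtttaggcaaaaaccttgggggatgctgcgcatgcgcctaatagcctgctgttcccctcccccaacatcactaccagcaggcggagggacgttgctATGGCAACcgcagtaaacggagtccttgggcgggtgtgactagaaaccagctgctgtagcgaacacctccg
The capitals begin at position -30 from the start site in Kcnj9, -32 in Apobec4, -108 in Lrriq4 and -21 in Cfap44. Kcnj9, a potassium channel subunit, was at 243 and 205 in wildtype and 91.8 and 92.4 in cKO (log2 fold change -1.27, SE 0.124, adjusted p = 3.84e-05), the largest decrease of the 4. Apobec4, a member of a cytidine deaminase family, was at 87.1 and 98.4 in wildtype and 41.5 and 50.7 in cKO (log2 fold change -1.0, SE 0.143, adjusted p = 0.000324). Lrriq4 was at 94.7 and 96.2 in wildtype and 51 and 52.1 in cKO (log2 fold change -0.88), and Cfap44 was at 83.7 and 124 in wildtype and 55.4 and 51.1 in cKO (log2 fold change -0.92). In each of these genes both cKO libraries were below both wildtype libraries.

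Sertoli cell markers went the other way. Of 25 tested Sertoli cell genes, 24 were called higher and none lower, with a median log2 fold change of 1.45, and the summed level was 1130 and 970.2 in wildtype and 3290 and 2730 in cKO. Sox9, the transcription factor that sets Sertoli identity, was at 26.9 and 18.7 in wildtype and 69.6 and 55 in cKO (log2 fold change 1.43, SE 0.187, adjusted p = 0.000183), and Wt1, which maintains it, was at 42.8 and 31.4 in wildtype and 107 and 90.7 in cKO (log2 fold change 1.40, SE 0.161, adjusted p = 8.7e-05). In each gene both cKO libraries were above both wildtype libraries by more than the gap within either group. The single gene that did not pass, Trf, was at 1.88 and 0.471 in wildtype and 1.39 and 1.27 in cKO (adjusted p = 0.776).

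The largest increases in the Sertoli list were in Cst12, a cystatin, at 11.3 and 5.18 in wildtype and 45.8 and 32 in cKO (log2 fold change 2.17, SE 0.285, adjusted p = 0.000183), and Defb19, a defensin, at 24.7 and 18.5 in wildtype and 105 and 66.6 in cKO (log2 fold change 1.92, SE 0.202, adjusted p = 5.72e-05). Amh, the anti-Müllerian hormone that is high before puberty and low in the adult, was at 2.91 and 2.04 in wildtype and 8.78 and 13.3 in cKO (log2 fold change 1.78, SE 0.314, adjusted p = 0.00114), a low level with few reads behind it. Sertoli calls held in most fits: 20 of the 25 were higher without cKO 1, 20 without the variance trend and 22 under DESeq2.

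Leydig cell genes had 15 of 20 higher and none lower, with a median of 1.30. Agt, angiotensinogen, was at 103 and 184 in wildtype and 638 and 499 in cKO (log2 fold change 2.03, SE 0.204, adjusted p = 4.59e-05), and Insl3, the peptide hormone of testis descent, was at 42.8 and 13.2 in wildtype and 138 and 81.5 in cKO (log2 fold change 2.10, SE 0.365, adjusted p = 0.00103). Of the genes of steroid synthesis, Star, which brings cholesterol into mitochondria, was at 82 and 52.3 in wildtype and 185 and 78.3 in cKO (log2 fold change 0.87, SE 0.289, adjusted p = 0.0365) and Cyp11a1, which makes pregnenolone from it, was at 39.9 and 43.8 in wildtype and 95.6 and 66.6 in cKO (log2 fold change 0.92, SE 0.166, adjusted p = 0.00134). For Star the cKO 2 value lay below wildtype 1, and its call was lost without cKO 1, without wildtype 2, under DESeq2, under quantile normalization and without the variance trend.

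The 2 cKO libraries differed more in Leydig genes than in Sertoli genes. The median offset of Leydig genes from the wildtype mean was 1.73 in cKO 1 and 0.95 in cKO 2, against 1.55 and 1.29 for Sertoli genes. The summed Leydig level was 747 and 689 in wildtype and 2450 and 1559 in cKO. Calls numbered 12 without cKO 1, 10 under DESeq2, where Insl3 and Sult1e1 lost theirs, and 5 without the variance trend. Sult1e1, an estrogen sulfotransferase, was at 9.76 and 3.14 in wildtype and 33.7 and 16.1 in cKO (log2 fold change 1.87, SE 0.394, adjusted p = 0.00336), with wide gaps inside both groups.

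Among genes of interstitial fibroblasts, 11 of 14 were higher and none lower, with a median of 1.44, a summed level of 259 and 265 in wildtype and 910.5 and 646 in cKO, and 8 calls without cKO 1. Dcn, the matrix proteoglycan decorin, was at 8.39 and 10.4 in wildtype and 39.4 and 28.5 in cKO (log2 fold change 1.74, SE 0.216, adjusted p = 0.00013), beside Pdgfra above. Col1a1, a chain of type I collagen, was at 1.88 and 2.04 in wildtype and 14.8 and 6.35 in cKO (log2 fold change 1.86, SE 0.364, adjusted p = 0.00216), and Serping1, a complement inhibitor, was at 15.2 and 11 in wildtype and 54.5 and 38.6 in cKO (log2 fold change 1.75, SE 0.21, adjusted p = 0.000111). In all of these cKO 1 was the highest library.

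Contractile cells of the tubule wall and of vessels gave a mixed list, with a median of 0.72. Of 12 genes, 5 were higher (41.7%, against 16.1% of all genes) and 1 lower (8.33% against 13.1%). Acta2, smooth muscle actin, was at 12.7 and 10.0 in wildtype and 24.1 and 26.9 in cKO (log2 fold change 1.11, SE 0.205, adjusted p = 0.00152), Myl9, a myosin light chain, was at 45.2 and 25.9 in wildtype and 85.3 and 73.4 in cKO (log2 fold change 1.18, SE 0.204, adjusted p = 0.00098) and Myh11, smooth muscle myosin, was at 11 and 8.63 in wildtype and 15.3 and 18.3 in cKO (log2 fold change 0.73, SE 0.229, adjusted p = 0.0289). Myh11 lost its call when any of wildtype 2, cKO 1 or cKO 2 was left out, under DESeq2 and under quantile normalization. The gene called lower, named after its values were seen, was Actg2, another smooth muscle actin, at 75.5 and 70.2 in wildtype and 47.9 and 47 in cKO (log2 fold change -0.61, SE 0.133, adjusted p = 0.00433), a call lost without the variance trend. The summed level was 240.4 and 201 in wildtype and 334 and 308 in cKO, and 3 genes were higher without cKO 1 and 1 without the variance trend.

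Endothelial markers did not rise as a list: 1 of 10 was higher, 2 were lower and the median was 0.08, which turned to -0.33 with a minimum mean of 5 and to -0.07 with quantile normalization. Cdh5, the cadherin of endothelial junctions, was at 3.25 and 2.04 in wildtype and 6.13 and 6.23 in cKO (log2 fold change 1.00, SE 0.32, adjusted p = 0.031), while Vwf was at 13.9 and 13 in wildtype and 8.36 and 5.46 in cKO (log2 fold change -0.89, SE 0.262, adjusted p = 0.0205) and Tek at 6.16 and 5.18 in wildtype and 1.81 and 3.05 in cKO (log2 fold change -0.98, adjusted p = 0.0382). Pecam1 was low in every library, at 1.20 and 0.942 in wildtype and 1.39 and 1.40 in cKO (adjusted p = 0.691). The calls of Cdh5 and Vwf were each lost without cKO 2, that of Cdh5 also without cKO 1, without wildtype 2, under DESeq2 and under quantile normalization, and that of Vwf without wildtype 1 and without the variance trend. Tek, which was called lower, lost its call without wildtype 1, without cKO 1, under DESeq2 and without the variance trend.

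Macrophage genes had 10 of 16 higher and none lower, with a median of 0.90. Lyz2, lysozyme, was at 6.16 and 4.87 in wildtype and 22.7 and 17.9 in cKO (log2 fold change 1.71, SE 0.246, adjusted p = 0.000326), C1qc, a chain of complement C1q, was at 6.51 and 5.81 in wildtype and 24.1 and 16.1 in cKO (log2 fold change 1.54, SE 0.252, adjusted p = 0.000728) and Csf1r, the receptor for macrophage growth factor, was at 23.3 and 19.9 in wildtype and 37.5 and 34.8 in cKO (log2 fold change 0.72, SE 0.168, adjusted p = 0.00615). Cd74, the invariant chain of antigen presentation, was at 3.94 and 4.39 in wildtype and 30.6 and 9.78 in cKO (log2 fold change 1.84, SE 0.386, adjusted p = 0.00326), mostly from cKO 1. Cd68, a lysosomal protein of macrophages, was at 2.40 and 1.26 in wildtype and 2.79 and 2.03 in cKO and did not pass (log2 fold change 0.29, adjusted p = 0.582). Without cKO 1 the list had 4 genes higher, Cd74 not among them, and 1 lower; without the variance trend it had 3 higher.

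Other blood cells left little trace. None of 4 tested lymphocyte genes was called by limma, with Cd3d at 6.51 and 7.85 in wildtype and 3.90 and 3.81 in cKO (adjusted p = 0.0703), and none of 3 erythroid genes. At an unadjusted p under 0.05 there was 1 lymphocyte gene and 1 erythroid gene, and edgeR and DESeq2 called none, while under quantile normalization 1 lymphocyte gene was called lower. The list medians were -0.17 and 0.17. When single libraries were left out they ranged from -0.47 to 0.25 and from -0.40 to -0.01, and that of erythroid genes also changed sign under quantile normalization. Of the epididymis list, Rnase10 was at 16.6 and 11.3 in wildtype and 5.57 and 8.01 in cKO (log2 fold change -0.94, SE 0.274, adjusted p = 0.0202) and was not called without wildtype 1, without cKO 1 or without the variance trend, and the other tested gene, Defb42, was not called.

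The partners of Tex10 did not move as a set, with 1 called higher (16.7%, against 16.1% of all genes) and 1 lower (16.7% against 13.1%). Of 6 partners, Las1l, the nuclease of the complex, rose, at 13.2 and 8.16 in wildtype and 26.7 and 16.3 in cKO (log2 fold change 0.94, SE 0.27, adjusted p = 0.0184), and Pelp1, its scaffold, fell, at 104 and 101 in wildtype and 78.1 and 76.7 in cKO (log2 fold change -0.40, SE 0.122, adjusted p = 0.026). Neither call was made without cKO 1, under quantile normalization or without the variance trend, Las1l was also not called without wildtype 2, and Pelp1 not without wildtype 1 or without cKO 2. Las1l is X-linked. Wdr18 was at 32.4 and 34.2 in wildtype and 41.2 and 35.1 in cKO (log2 fold change 0.19, adjusted p = 0.398), and Senp3, Nol9 and Mdn1 did not pass the test. The median of the partners was 0.25.

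Of 41 ribosome biogenesis factors, 9 were higher (22.0%, against 16.1% of all genes) and 3 lower (7.32% against 13.1%). Their median was 0.15, but 0.05 without wildtype 2, 0.33 without wildtype 1 and 0.075 under quantile normalization. Ncl, nucleolin, was at 47.9 and 43.8 in wildtype and 88 and 70.5 in cKO (log2 fold change 0.77, SE 0.146, adjusted p = 0.00181), Nop56, a core protein of box C/D snoRNPs, was at 5.48 and 4.55 in wildtype and 9.61 and 12.3 in cKO (log2 fold change 0.99, SE 0.273, adjusted p = 0.0152) and Polr1b, a subunit of RNA polymerase I, was at 4.11 and 4.71 in wildtype and 8.78 and 10.3 in cKO (log2 fold change 0.96, SE 0.278, adjusted p = 0.0192). Nop14, Wdr12 and Bms1 were called lower and were named after their values were seen. Nop14 was at 58.6 and 69.8 in wildtype and 36.8 and 36.5 in cKO (log2 fold change -0.79, SE 0.146, adjusted p = 0.00153). Without the variance trend none of the 3 was called. The call of Polr1b was lost without cKO 1, without cKO 2 and under DESeq2, that of Nop56 without cKO 2, and both under quantile normalization. Without cKO 1, without cKO 2, under DESeq2 or without the variance trend 3 factors were called higher, and under quantile normalization 2.

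Of 70 cytosolic ribosomal protein genes, 10 were higher (14.3%, against 16.1% of all genes) and none lower, with a median of 0.33. Rpl13 was at 4.79 and 2.67 in wildtype and 9.75 and 10.2 in cKO (log2 fold change 1.25, SE 0.306, adjusted p = 0.00799) and Rpl22 at 15.1 and 12.6 in wildtype and 33 and 23 in cKO (log2 fold change 0.95, SE 0.213, adjusted p = 0.00467), while Rps2 was at 12.3 and 14.6 in wildtype and 12.4 and 15 in cKO (adjusted p = 0.955). These genes have many near-identical processed pseudogenes that can take part of their reads, so their levels are uncertain. The count of higher genes was 3 without cKO 1, where Rpl22 lost its call, 5 without wildtype 2, 4 under DESeq2, 5 without the variance trend and 14 without wildtype 1. Under quantile normalization it was 5, with 1 lower and a median of 0.13, and with a pseudocount of 5 the median was 0.21.

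Targets of p53, the transcription factor of the DNA damage response, had 9 of 18 higher and none lower, with a median of 0.69. Phlda3, an inhibitor of Akt, was at 1.71 and 2.35 in wildtype and 11.1 and 10.4 in cKO (log2 fold change 1.97, SE 0.3, adjusted p = 0.000468), Pmaip1 (Noxa), which promotes apoptosis, was at 7.19 and 3.45 in wildtype and 14.5 and 16.6 in cKO (log2 fold change 1.45, SE 0.3, adjusted p = 0.00298), and Cdkn1a (p21), which halts the cell cycle, was at 10.4 and 12.6 in wildtype and 20.9 and 24.5 in cKO (log2 fold change 0.92, SE 0.208, adjusted p = 0.0049). The cKO libraries lay close together in each. Mdm2, which degrades p53, was at 165 and 181 in wildtype and 179.8 and 201 in cKO and did not pass (log2 fold change 0.13, adjusted p = 0.432). Calls were 7 both without cKO 1 and without the variance trend. In the same libraries the Sertoli, Leydig and interstitial fibroblast marker lists had medians of 1.45, 1.30 and 1.44, and their part in the p53 target values was not tested.

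Targets of ATF4, the factor of the integrated stress response and of amino acid supply, had 11 of 20 higher and 1 lower, with a median of 0.73. Ddit4, an inhibitor of mTORC1, was at 18.8 and 19.6 in wildtype and 74.8 and 60.4 in cKO (log2 fold change 1.75, SE 0.161, adjusted p = 2.71e-05), and Psat1, an enzyme of serine synthesis, was at 17.8 and 9.89 in wildtype and 35.5 and 30.1 in cKO (log2 fold change 1.24, SE 0.237, adjusted p = 0.00193). Slc3a2, a subunit of amino acid transporters, was at 82.9 and 91.8 in wildtype and 224 and 157 in cKO (log2 fold change 1.09, SE 0.154, adjusted p = 0.000285), and Atf4 itself was at 33.4 and 34.5 in wildtype and 55 and 52.5 in cKO (log2 fold change 0.65, SE 0.143, adjusted p = 0.00449). Asns, asparagine synthetase, was the one called lower and was named after its values were seen, at 87.1 and 91.5 in wildtype and 56.6 and 57.2 in cKO (log2 fold change -0.64, SE 0.128, adjusted p = 0.00238). Ddit3 (Chop) was at 60.4 and 58.7 in wildtype and 58.5 and 62.4 in cKO (adjusted p = 0.929). Without cKO 1, 10 were higher, and without the variance trend 7 were higher and none, Asns included, was lower. The part of the Sertoli, Leydig and fibroblast markers in these values was likewise not tested.

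**Figure D4:**
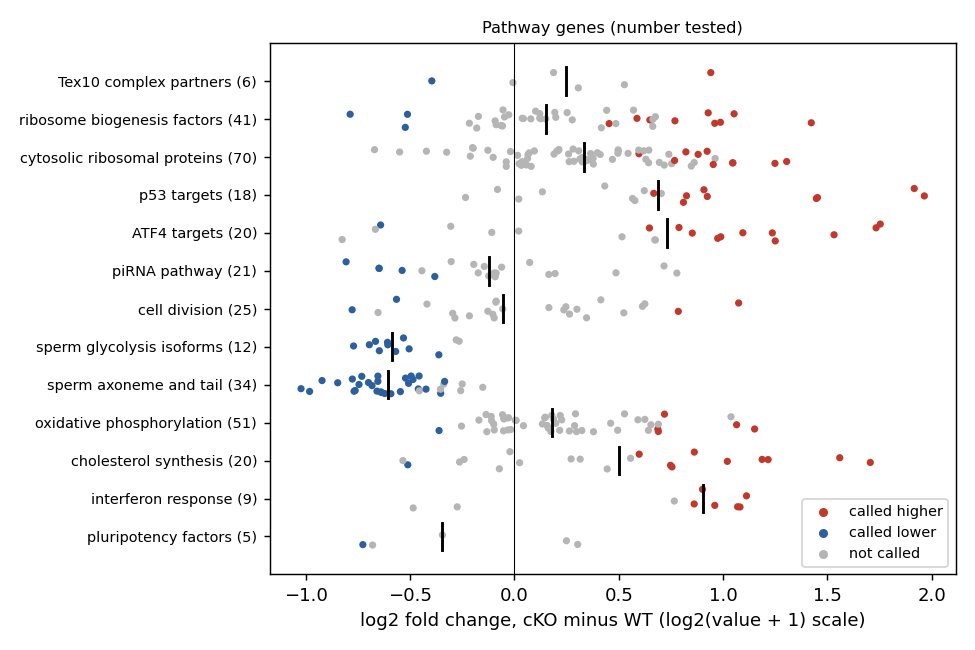
Each point is a tested gene of a pathway list, placed by its log2 fold change in cKO against wildtype on the log2(value + 1) scale, and the black bar is the list's median. The sperm glycolysis and axoneme lists lie below 0 (medians -0.59 and -0.61), while the p53 and ATF4 lists lie mostly above it (0.69 and 0.73).

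Cholesterol synthesis genes, which feed both membranes and steroid hormones, had 9 of 20 higher and 1 lower, with a median of 0.50. Nsdhl was at 4.62 and 4.24 in wildtype and 21.9 and 12.7 in cKO (log2 fold change 1.71, SE 0.286, adjusted p = 0.000818) and Msmo1 at 16.8 and 10.2 in wildtype and 53.5 and 30.8 in cKO (log2 fold change 1.56, SE 0.26, adjusted p = 0.000796), both enzymes late in the pathway and both highest in cKO 1. Sqle, named after its values were seen, fell, at 125 and 133 in wildtype and 92.4 and 88.1 in cKO (log2 fold change -0.51, SE 0.121, adjusted p = 0.00645). Without cKO 1, 3 genes were higher, under quantile normalization 6, with a median of 0.32, and without the variance trend 2, with Sqle not called. Markers of Leydig cells, which make steroids, were higher in the same libraries, and their part in this list was not tested.

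Of 9 tested interferon response genes, 6 were higher and none lower, with a median of 0.90. Irf9, the DNA-binding part of the interferon-activated complex, was at 2.91 and 2.83 in wildtype and 7.38 and 6.99 in cKO (log2 fold change 1.08, SE 0.299, adjusted p = 0.0151), and its partner Stat2 was at 4.45 and 3.92 in wildtype and 10.4 and 7.88 in cKO (log2 fold change 0.96, SE 0.287, adjusted p = 0.0223). All 6 had low values, and none was called without cKO 1 or under DESeq2, while 1 was called under quantile normalization and 2 without cKO 2. Macrophage markers were higher in the same libraries, and their part here was not tested.

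The piRNA pathway, which silences transposons in germ cells, had 5 of 21 genes lower (23.8%, against 13.1% of all genes) and none higher. The share of lower calls rose with abundance, to 38.7% in the most abundant of the 5 groups of genes, so 23.8% is not read as an excess. The median of the list was -0.12 and became 0.02 under quantile normalization. Besides Tdrd6, Tdrd7 was at 343 and 333 in wildtype and 209 and 221 in cKO (log2 fold change -0.65, SE 0.113, adjusted p = 0.00102) and Rnf17 was at 57.7 and 65.1 in wildtype and 38.3 and 39.1 in cKO (log2 fold change -0.65, SE 0.142, adjusted p = 0.00413), both proteins of germ granules. Piwil1 and Piwil2, the Piwi proteins themselves, had log2 fold changes of -0.15 and -0.09 and adjusted p-values of 0.377 and 0.589. Under quantile normalization 2 genes were called lower and without the variance trend none.

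Of 25 cell division genes, 2 were higher (8.0%, against 16.1% of all genes) and 2 lower (8.0% against 13.1%), with a median of -0.06. Mki67, a marker of cycling cells, was at 88.9 and 77.1 in wildtype and 76.1 and 78.5 in cKO (log2 fold change -0.10, adjusted p = 0.611), and Top2a was at 67.6 and 64.7 in wildtype and 64.4 and 62.8 in cKO (adjusted p = 0.783). Of the replication helicase, Mcm2 was higher, at 5.14 and 3.61 in wildtype and 9.75 and 10.7 in cKO (log2 fold change 1.07, SE 0.283, adjusted p = 0.0117), as was Mcm4, at 4.11 and 4.55 in wildtype and 8.36 and 8.01 in cKO (log2 fold change 0.79, SE 0.281, adjusted p = 0.0497). Mcm7 was lower, at 79.6 and 77.7 in wildtype and 47.5 and 43.5 in cKO (log2 fold change -0.78, SE 0.134, adjusted p = 0.000952), although the Mcm7 gene also holds microRNA genes and overlaps Cops6 and Ap4m1 on the opposite strand. The call of Mcm2 was lost without cKO 2, and that of Mcm4 with no filter, under median-ratio scaling and quantile normalization, under edgeR and DESeq2 and whenever a single library was left out. The median was 0.00 to 0.10 when single libraries were left out. With a replicate block 4 genes were higher, and under quantile normalization 4 were lower.

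Of 12 pluripotency factors in the list, 5 were measured and tested, of which 1 was lower and none higher. Klf4, which is also a gene of spermatids, fell, at 327 and 353 in wildtype and 193 and 217 in cKO (log2 fold change -0.73, SE 0.118, adjusted p = 0.000657), and this call was lost without the variance trend. Pou5f1 was at 2.74 and 3.14 in wildtype and 1.81 and 1.14 in cKO and did not pass (log2 fold change -0.68, adjusted p = 0.158). The median was -0.35, but -0.003 without cKO 2, -0.64 without cKO 1 and -0.05 with a minimum mean of 5.

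Nuclear and mitochondrial genes of the respiratory chain differed in their counts. Of 51 nuclear oxidative phosphorylation genes, 5 were higher (9.80%, against 16.1% of all genes) and 1 was lower (1.96% against 13.1%). Their median was 0.18, but 0.02 without wildtype 2, 0.28 without wildtype 1 and 0.09 under quantile normalization. Cox8a was at 19.9 and 12.1 in wildtype and 51 and 24.9 in cKO (log2 fold change 1.15, SE 0.286, adjusted p = 0.00866), with cKO 1 far above cKO 2, and Sdhb, a subunit of complex II, was at 4.45 and 4.55 in wildtype and 11.3 and 9.78 in cKO (log2 fold change 1.06, SE 0.271, adjusted p = 0.00978). Uqcrc2, named after its values were seen, was the lower one, at 79.1 and 77.5 in wildtype and 62.7 and 58.8 in cKO (log2 fold change -0.36, SE 0.129, adjusted p = 0.0486). The count of higher genes was 0 without cKO 1, 2 without wildtype 2, 8 without wildtype 1, 1 under DESeq2 and 3 under median-ratio scaling. The call of Uqcrc2 was lost with a pseudocount of 0.1, with no filter, under quantile normalization, under DESeq2, without the variance trend and whenever a single library was left out.

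Genes of the mitochondrial chromosome, named after their values were seen, were higher in 10 of 11 tested, against 16.1% of all genes, with a median of 0.96. mt-Co1, the most abundant transcript of the table by its mean, was at 6279 and 5049 in wildtype and 11137 and 10674 in cKO (log2 fold change 0.95, SE 0.172, adjusted p = 0.00129). mt-Nd5 was at 433 and 364 in wildtype and 947 and 857 in cKO (log2 fold change 1.18, SE 0.126, adjusted p = 6.05e-05), and the ribosomal RNA mt-Rnr2 was at 210.1 and 97.3 in wildtype and 429 and 396 in cKO (log2 fold change 1.52, SE 0.237, adjusted p = 0.000523). The cKO libraries lay close together in all 3, above both wildtype libraries. Without cKO 1 and without the variance trend 6 were higher, and mt-Co1 was not called without cKO 1 or without cKO 2. Malat1, a nuclear RNA named after its values were seen, was also higher, at 741 and 472 in wildtype and 1285 and 777 in cKO (log2 fold change 0.76, SE 0.217, adjusted p = 0.0184), a call lost without cKO 1, under DESeq2 and without the variance trend. The Sertoli, Leydig and fibroblast marker lists were higher in the same libraries, and the part of Malat1 or of these lists in the mitochondrial values was not tested.

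The X chromosome had a larger share of genes called higher than any autosome. In male meiosis the X and Y are silenced in pachytene spermatocytes and stay largely repressed in spermatids. Of 719 tested X genes, 37.0% were called higher and 4.87% lower, with a median log2 fold change of 0.57. On single autosomes 12.2% to 17.7% were higher and 11.7% to 15.4% lower, with medians from -0.07 to 0.04. With the genes of the Sertoli list left out, 36.5% of 713 X genes were higher and 4.91% lower, with a median of 0.57. Sertoli, Leydig and fibroblast markers were higher in the same libraries, and the part of these cell types in the X values was not tested. The direction held in each alternative tried, with X medians from 0.30 with a pseudocount of 5 to 0.71 with a pseudocount of 0.1.

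**Figure D5:**
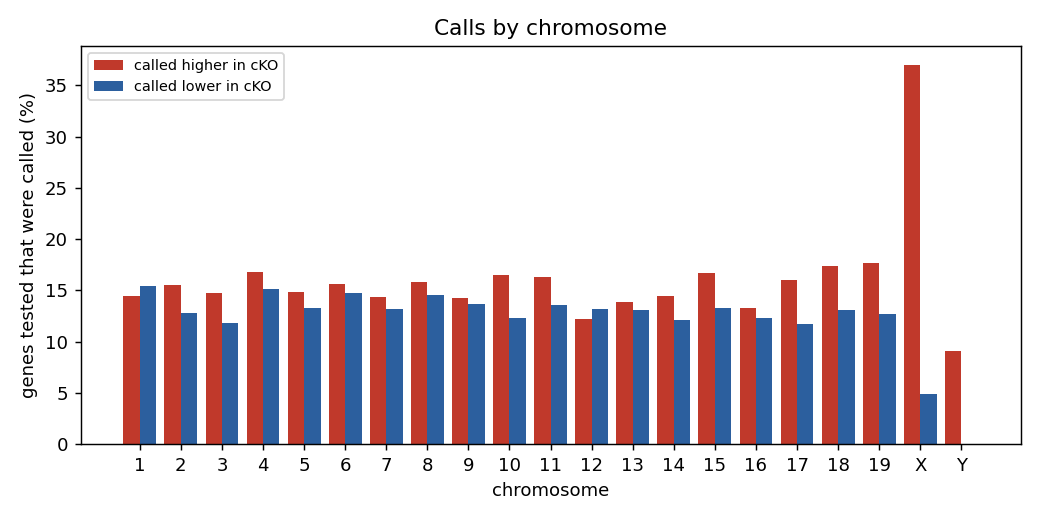
Bars give the percentage of tested genes on each chromosome that were called higher (red) or lower (blue) in cKO. The autosomes lie between 12.2% and 17.7% for higher calls, the X is at 37.0% higher and 4.87% lower, and the Y has 22 tested genes.

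The X shift differed by abundance. With all tested genes split into 3 groups of about equal size by mean, X genes had medians of 0.54, 0.69 and 0.13 from the least to the most abundant, against 0.07, 0.15 and -0.16 for autosomal genes. In the most abundant group 43.4% of 129 X genes were higher and 17.1% were lower, against 14.9% and 30.1% of autosomal genes. The X genes that fell included spermatid genes such as Akap4 and Cylc1, a protein of the sperm head that was at 136 and 143 in wildtype and 87.2 and 102 in cKO (log2 fold change -0.56, SE 0.126, adjusted p = 0.0051) and was not called without cKO 1.

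Among the X genes that rose, named after their values were seen, Tbl1x, a part of corepressor complexes, was at 17.8 and 17.6 in wildtype and 53.1 and 45.5 in cKO (log2 fold change 1.42, SE 0.164, adjusted p = 8.85e-05), and Hdac6, a tubulin deacetylase, was at 28.1 and 17.3 in wildtype and 69.4 and 57.4 in cKO (log2 fold change 1.48, SE 0.201, adjusted p = 0.000233). Tmsb4x, an actin-binding peptide of most cell types, was at 60.4 and 44.6 in wildtype and 168 and 129 in cKO (log2 fold change 1.49, SE 0.163, adjusted p = 6.94e-05). Taf1, a subunit of TFIID, was at 5.65 and 4.39 in wildtype and 14.6 and 15.4 in cKO (log2 fold change 1.42, SE 0.256, adjusted p = 0.0013). In all 4 both cKO libraries were above both wildtype libraries. The Y chromosome had 22 tested genes, of which 2 were higher (9.09%, against 16.1% of all genes) and none lower. Its median of 0.05 changed sign under quantile normalization (-0.10) and without cKO 2 (-0.08).

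Gene classes also differed. Of 14734 protein-coding genes, 20.1% were higher and 14.2% lower, with a median of 0.09. Of 1465 lincRNA genes, 3.75% were higher and 11.3% lower, with a median of -0.27, and of 1301 antisense genes 5.53% were higher and 13.5% lower, with a median of -0.22. Antisense genes share their locus with another gene. The sources used here do not say whether reads were counted by strand, so reads of the 2 strands may be mixed.

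The authors' deposited table has its own comparison of the same libraries. At an adjusted p under 0.05 it lists 6526 genes, 3634 higher and 2892 lower. Of the limma calls 5991 are in that list, all with the same sign, which is 91.8% of the genes called in the authors' deposited table and 99.6% of the limma calls. Both rest on the same 4 libraries. Tex10 is given there with a log2 fold change of -1.11 in the authors' deposited table.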

How the data were processed

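RNA-seq was read in 4 mouse testis libraries. RNA was extracted with Trizol and sequenced from libraries of a NuGEN Ovation Mouse RNA-seq kit, per the labels' protocols. Bowtie2 2.3.4.3, SAMtools 1.9, HTSeq 0.11.2, edgeR 3.26.8 and the mm10 build are named in the submitters' processing notes, with no roles or options. The values deposited by the authors are a signal scaled by TMM, per the table's name; in every library they are whole multiples of a step, so whole reads were recovered for 100% of values above 0 (tolerance 0.01 read). The authors also deposited log2 fold changes, p-values and FDR values per the file headers, which were used for a side by side count.

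From the deposited values, log2(value + 1) was fitted by limma 3.58.1 in R 4.3.3 with a variance trend and genotype as the only term, for genes with a mean of at least 1. A gene was called at a Benjamini-Hochberg adjusted p under 0.05. Fold changes on this scale understate those of low genes. Alternatives were pseudocounts of 0.1 and 5, no filter or a minimum mean of 5, median-ratio scaling, quantile normalization, no variance trend, an added minimum fold change, edgeR 4.0.16 and DESeq2 1.42.0 on recovered reads, the replicate number as a block, and leaving out each library. On the recovered reads edgeR called 5908 genes and DESeq2 4356.

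Genes were matched by symbol to GENCODE M21 (21145 of 21275, 99.4%) for chromosome and class, and promoters were taken from a RefSeq table of GRCm38.p6. The 28 gene lists and the members were chosen with earlier results of these data known, and lists are described by counts and medians without a test. Genes were named by a rule: Tex10; the 12 largest increases and decreases among genes called with no overlap between groups, a mean of at least 5 and a symbol that is not a gene model name; and in each list the first 2 genes and the 3 largest changes among genes called with no overlap and a mean of at least 5, whatever the symbol. Any other gene was named after its values were seen. One gene that the rule names is not reported here.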

Additional observations from a re-analysis of the deposited data

How the results depend on the processing

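The number of genes called was 6016 and lay between 4356 (DESeq2) and 7185 (replicate block) in 9 alternatives; it was 2135 without the variance trend (77.8% of calls higher, against 55.1%), 1978 with an added minimum of 1 on the absolute log2 fold change (86.2% higher), and 3199 to 6119 when single libraries were left out, lowest without cKO 1. The causes were not tested. Tex10 stayed at -1.02 without the variance trend but missed the threshold (adjusted p = 0.0782), and ranged from -1.44 to -0.61 when single libraries were left out. Sample numbers 1 and 2 occur in both groups, but nothing says that they pair the samples. Across the genes tested, the log2 difference of wildtype 1 from wildtype 2 correlated at 0.116 with that of cKO 1 from cKO 2. The replicate block in limma called 7185 genes and gave Tex10 an adjusted p of 5.15e-05. Pgk2 changed sign under quantile normalization, to 0.04. Of 134 named genes, 67 kept their sign and their side of the threshold in each alternative.

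With a pseudocount of 0.1 the medians that moved beyond the spread between replicates were 0.36 for undifferentiated spermatogonia, 0.81 for differentiating spermatogonia, 1.32 for macrophages, -0.28 for lymphocytes, 0.78 for p53 targets, 0.89 for ATF4 targets, 1.10 for interferon response and 0.71 for X genes. With a pseudocount of 5 they were 0.14 for undifferentiated spermatogonia, 0.54 for differentiating spermatogonia, 1.16 for Sertoli cells, 0.42 for peritubular myoid and smooth muscle, 1.07 for interstitial fibroblasts, -0.07 for lymphocytes, -0.40 for epididymis, 0.21 for cytosolic ribosomal proteins, 0.53 for p53 targets, 0.56 for ATF4 targets, 0.36 for cholesterol synthesis, 0.55 for interferon response, -0.23 for pluripotency factors and 0.30 for X genes. A minimum mean of 5 gave 0.39 for undifferentiated spermatogonia, 0.71 for differentiating spermatogonia, -0.33 for endothelial cells, -0.75 for lymphocytes, -0.94 for epididymis, 0.82 for ATF4 targets, -0.05 for pluripotency factors, -0.02 for autosomal genes, 0.65 for X genes and 0.16 for Y genes. Median-ratio scaling gave 0.66 for differentiating spermatogonia and -0.02 for autosomal genes. Quantile normalization gave 0.19 for undifferentiated spermatogonia, 0.52 for differentiating spermatogonia, -0.25 for pachytene and diplotene spermatocytes, -0.38 for round spermatids, -0.28 for elongating spermatids, 0.62 for peritubular myoid and smooth muscle, -0.07 for endothelial cells, -0.31 for lymphocytes, 0.13 for cytosolic ribosomal proteins, 0.60 for p53 targets, 0.62 for ATF4 targets, 0.02 for piRNA pathway, -0.15 for sperm glycolysis isoforms, -0.45 for sperm axoneme and tail, 0.32 for cholesterol synthesis, 0.71 for interferon response, -0.06 for autosomal genes, 0.44 for X genes and -0.10 for Y genes. Under edgeR on recovered reads the moved medians were 0.41 for undifferentiated spermatogonia, 0.84 for differentiating spermatogonia, 0.82 for peritubular myoid and smooth muscle, 1.36 for macrophages, -0.33 for lymphocytes, 0.78 for p53 targets, 0.90 for ATF4 targets, 1.13 for interferon response and 0.71 for X genes. Under DESeq2 they were 0.37 for undifferentiated spermatogonia, 0.80 for differentiating spermatogonia, 1.34 for macrophages, -0.36 for lymphocytes, -0.86 for epididymis, 0.87 for ATF4 targets, -0.17 for piRNA pathway, 1.10 for interferon response, -0.03 for autosomal genes and 0.68 for X genes. When single libraries were left out, medians ranged from 0.28 to 0.38 for undifferentiated spermatogonia, from 0.63 to 0.89 for differentiating spermatogonia, from -0.04 to 0.26 for meiotic prophase, from -0.38 to -0.31 for pachytene and diplotene spermatocytes, from -0.65 to -0.49 for round spermatids, from -0.66 to -0.59 for elongating spermatids, from 1.29 to 1.62 for Sertoli cells, from 0.93 to 1.73 for Leydig cells, from 0.54 to 0.85 for peritubular myoid and smooth muscle, from 1.15 to 1.66 for interstitial fibroblasts, from -0.33 to 0.20 for endothelial cells, from 0.67 to 1.15 for macrophages, from -0.47 to 0.25 for lymphocytes, from -0.40 to -0.01 for erythroid cells, from -0.84 to -0.46 for epididymis, from 0.17 to 0.32 for Tex10 complex partners, from 0.05 to 0.33 for ribosome biogenesis factors, from 0.26 to 0.46 for cytosolic ribosomal proteins, from 0.65 to 0.81 for p53 targets, from 0.61 to 0.81 for ATF4 targets, from -0.20 to -0.07 for piRNA pathway, from 0.00 to 0.10 for cell division, from -0.59 to -0.54 for sperm glycolysis isoforms, from -0.61 to -0.55 for sperm axoneme and tail, from 0.02 to 0.28 for oxidative phosphorylation, from 0.41 to 0.54 for cholesterol synthesis, from 0.82 to 1.08 for interferon response, from -0.64 to -0.00 for pluripotency factors, from -0.00 to 0.02 for autosomal genes, from 0.50 to 0.60 for X genes and from -0.08 to 0.14 for Y genes. Depth limits genes near the floor of 3 reads, and with 2 libraries a group the spread of each gene is borrowed from genes of like abundance.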
